A study of Rattus norvegicus with 12 samples.

Results

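Gfap, Aqp4, Sox9 and Nfib are 4 genes by which astrocytes are commonly recognised, and they were taken by symbol from a table of 9721 genes, of which 9491 were tested, the 4 included. The cells were wild-type astrocytes in primary culture, taken from midbrains of newborn SD rats and grown in DMEM with fetal bovine serum. The 4 groups of 3 libraries were control (0 h) and 1.5, 3 and 6 h of exposure to 10 µM PT109B, a compound given under a code name. All groups shared the serum medium. Nothing in the labels ties replicates to cultures of their own, and the spread behind each p-value may therefore be technical.

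Gfap encodes glial fibrillary acidic protein, the intermediate filament that marks most cultured and reactive astrocytes. Aqp4 encodes aquaporin 4, the water channel of astrocyte endfeet. Sox9 and Nfib encode transcription factors that act earlier: in mouse and chick spinal cord SOX9 helps neural progenitors switch from making neurons to making glia and induces nuclear factor I proteins, which then bind and open astrocyte genes, Gfap among them. Cytokines of the LIF family acting through STAT3, and BMPs acting through SMAD proteins, are the classical inducers of Gfap. Work with this compound belongs to the conversion of astrocytes into neurons, and the comparisons ask how far these genes depart from control as exposure goes on.

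The 4 genes did not move as 1 block. Sox9 rose at 3 h, to 2.15 times its control level, and was still above control at 6 h. Nfib and Gfap fell by 6 h, to 0.59 and 0.553 of control. Aqp4 had 0.569 of its control level at 6 h but did not pass the test. At 1.5 h 0 of the 4 passed; the estimates of Gfap, Sox9 and Nfib were above 0 under each scaling, and that of Aqp4 was 0.07 with TMM and -0.006 with library size or depth scaling. In a bulk sample fewer cells of a type and less RNA per cell cannot be told apart.

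Promoter windows, the 250 bases before a gene's start, were read from RefSeq for build GRCr8 and matched 3 of the 4 symbols (Gfap, Aqp4 with a pair of starts, and Nfib), with Sox9 the one not matched. The windows of the structural gene and of the transcription factor that both fell are shown 5′ to 3′ on the gene's strand. Capitals mark ACAAT or its reverse complement, the core letters of the motif bound by SOX proteins.
Gfap, chr10:88361662-88361911, minus strand: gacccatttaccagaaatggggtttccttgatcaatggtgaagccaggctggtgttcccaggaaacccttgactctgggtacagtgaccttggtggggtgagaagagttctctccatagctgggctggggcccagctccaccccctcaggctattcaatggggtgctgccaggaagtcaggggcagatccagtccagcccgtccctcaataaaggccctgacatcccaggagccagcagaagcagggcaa
Nfib, chr5:102019946-102020195, minus strand: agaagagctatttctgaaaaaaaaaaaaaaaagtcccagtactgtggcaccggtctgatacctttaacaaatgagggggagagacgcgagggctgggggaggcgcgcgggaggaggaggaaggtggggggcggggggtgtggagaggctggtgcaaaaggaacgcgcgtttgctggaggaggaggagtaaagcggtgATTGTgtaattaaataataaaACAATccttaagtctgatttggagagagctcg
The Gfap window had a GC content of 57.6% and 1 CG dinucleotide, and the Nfib window 51.2% and 12, where the median of 33469 windows was 51.2% and 5. ACAAT lay 53 and 32 bases before the Nfib start, and 30.0% of all windows hold it at least once. The other letters searched on both strands were TTCNNNGAA (STAT, in 7.67% of all windows), TTGGC (nuclear factor I core, 40.3%), TGANTCA (AP-1, 6.34%), TGACG (CREB core, 18.2%), GGCGCC (SMAD1, 8.69%) and TATAAA (12.9%). The windows of Gfap, Aqp4 and Nfib held 0 matches to these 6. With 0 matches to the others, the 2 ACAAT matches overlap no other motif. A match is a description and not a site, and no match says only that these letters are not in this window.

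The libraries held 9368972 to 12498050 counts over the genes of the table, and levels below are CPM on TMM-scaled libraries unless FPKM is named. In each treated group 1 library stood apart from the other pair and lay closest to the controls, namely replicate 3 at 1.5 h, replicate 3 at 3 h and replicate 1 at 6 h. Its correlation with controls across genes was 0.9443 to 0.9764, against 0.8869 to 0.9155 for the other 6 treated libraries. The counts behind each value were 9098 to 41274 for Gfap, 6346 to 24213 for Aqp4, 1353 to 2737 for Sox9 and 407 to 1204 for Nfib. Counting error alone was therefore at most 1.26% for Gfap and Aqp4, 2.72% for Sox9 and 4.96% for Nfib. Per length, in FPKM, Gfap ranked 48th and Aqp4 176th of the 9721 genes in controls, and Sox9 and Nfib ranked 2353rd and 2529th. Other defining astrocyte genes were present, with glutamine synthetase (Glul) at 3267 ± 929 CPM and connexin 43 (Gja1) at 364 ± 38.3 CPM in controls (SD, n = 3).

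Sox9 (ENSRNOG00000002607) had the clearest pattern. Its level was 116, 111 and 132 CPM in controls, 148.1, 149.7 and 143.1 CPM at 1.5 h, 253, 267 and 251 CPM at 3 h, and 141.5, 189 and 174 CPM at 6 h. All 9 treated libraries lay above the highest control, and the 3 h libraries lay above all others. Of all genes 12.9%, 23.4% and 28.2% lay wholly above control at 1.5, 3 and 6 h. The share of genes with the whole Sox9 pattern was not counted. In means Sox9 was at 119.6 ± 11.4, 147 ± 3.46, 257 ± 8.99 and 168 ± 24.3 CPM (SD, n = 3 each), and 22.3, 26.0, 39.4 and 27.2 FPKM. Against control the log2 change was 0.30 ± 0.12 (SE) at 1.5 h, which edgeR did not call (adjusted p = 0.201). It was 1.103 ± 0.12 at 3 h (adjusted p = 0.000241, 95% interval 0.83 to 1.37) and 0.49 ± 0.12 at 6 h (adjusted p = 0.0123, interval 0.225 to 0.76). The 3 h rise stayed past the threshold in all 21 alternatives run, with log2 changes from 0.79 to 1.18. The 6 h rise passed in 13 of 21: it was 0.26 with scaling by library size alone (adjusted p = 0.0829), and without control replicate 1 or 2, or 6 h replicate 2 or 3, it was 0.47, 0.44, 0.33 and 0.40.

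Between treatment times Sox9 went up and came down again. It was higher at 3 h than at 1.5 h by 0.81 ± 0.12 (log2, adjusted p = 0.00342, past the threshold in 21 of 21 alternatives). It was lower at 6 h than at 3 h, with a log2 change of -0.61 ± 0.12 (adjusted p = 0.024, 17 of 21). In the order 3 h, 6 h, 1.5 h and control, the step between 3 h and 6 h passed the test, and those between 6 h and 1.5 h (adjusted p = 0.218) and between 1.5 h and control did not.

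Nfib (ENSRNOG00000009795), which encodes a nuclear factor I protein that promotes astrocyte maturation, was lower than control at 6 h, where Sox9 was higher. Its level was 71.8, 75.1 and 86.5 CPM in controls, 90.7, 94.4 and 72.1 CPM at 1.5 h, 62.1, 68.4 and 72.55 CPM at 3 h, and 43.0, 48.1 and 46.5 CPM at 6 h. The 6 h libraries lay below all others, while the control, 1.5 h and 3 h libraries overlapped. Of all genes 27.5% lay wholly below control at 6 h, and the share below all other groups was not counted. The means were 77.8 ± 7.71, 85.7 ± 12, 67.7 ± 5.25 and 45.9 ± 2.64 CPM (SD, n = 3 each), and 20.45, 22.2, 15.2 and 11.2 FPKM. The log2 change against control was 0.14 ± 0.13 at 1.5 h (adjusted p = 0.537), -0.20 ± 0.13 at 3 h (adjusted p = 0.266) and -0.76 ± 0.13 at 6 h (adjusted p = 0.00181, interval -1.05 to -0.48). The fall at 6 h passed in all 21 alternatives, from -0.99 to -0.68. Against 1.5 h it was -0.90 ± 0.13 (adjusted p = 0.000722, 21 of 21). Against 3 h it was -0.56 ± 0.13 (adjusted p = 0.04), a call that held in 6 of 21 alternatives. In the order 1.5 h, control, 3 h and 6 h, only that last step passed.

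Gfap (ENSRNOG00000002919) was the most abundant of the 4. Its level was 1932, 1900 and 2708 CPM in controls, 3295, 3236 and 2906 CPM at 1.5 h, 1340, 1526 and 2450 CPM at 3 h, and 1558, 934 and 1127 CPM at 6 h. The 1.5 h libraries lay above every control and the 6 h libraries below every control, while 3 h replicate 3 lay inside the control range. The means were 2180 ± 457, 3146 ± 210, 1772 ± 595 and 1206 ± 320 CPM (SD, n = 3 each), and 609, 835, 418 and 299 FPKM. The log2 change against control was 0.53 ± 0.27 at 1.5 h, which did not pass (adjusted p = 0.281, interval -0.06 to 1.12). It was -0.30 ± 0.27 at 3 h (adjusted p = 0.426) and -0.85 ± 0.27 at 6 h (adjusted p = 0.0353, interval -1.45 to -0.26). The 6 h call held in 16 of 21 alternatives. It ended without control replicate 1, 2 or 3, where the log2 change was -0.93, -0.94 and -0.67, and without 6 h replicate 2 or 3, where it was -0.76 and -0.87.

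From its level at 1.5 h Gfap had lost more. At 6 h it was 1206 CPM, against 3146 CPM at 1.5 h, a log2 change of -1.38 ± 0.27 (adjusted p = 0.00362) that passed in all 21 alternatives. At 3 h against 1.5 h it was -0.83 ± 0.27, with groups that did not overlap and an adjusted p of 0.0518. At 6 h against 3 h it was -0.55 ± 0.27 (adjusted p = 0.299). In the order 1.5 h, control, 3 h and 6 h, 0 of the 3 neighbouring steps passed.

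Aqp4 (ENSRNOG00000016043) varied within each group, with a CV of 24.5% to 33.3%. Its level was 1320, 1179 and 2131 CPM in controls, 1543, 1264 and 2046 CPM at 1.5 h, 885, 1016 and 1609 CPM at 3 h, and 1160, 651 and 823 CPM at 6 h. The 6 h libraries lay below every control, and the other groups overlapped the control range. The means were 1543 ± 514, 1618 ± 396, 1170 ± 386 and 878 ± 259 CPM (SD, n = 3 each), and 220, 217, 140 and 111 FPKM. Against control the log2 change was 0.07 ± 0.32 at 1.5 h (adjusted p = 0.922), -0.40 ± 0.32 at 3 h (adjusted p = 0.376) and -0.81 ± 0.32 at 6 h (adjusted p = 0.0766, interval -1.53 to -0.10). At 6 h against 1.5 h it was -0.88 ± 0.32 (adjusted p = 0.0524). The 6 h value passed in 4 of 21 alternatives, among them without 6 h replicate 1 (-1.065, adjusted p = 0.0357). Leaving out control replicate 3 brought it to -0.51. In the order 1.5 h, control, 3 h and 6 h, 0 of the 3 neighbouring steps passed.

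**Figure D1:**
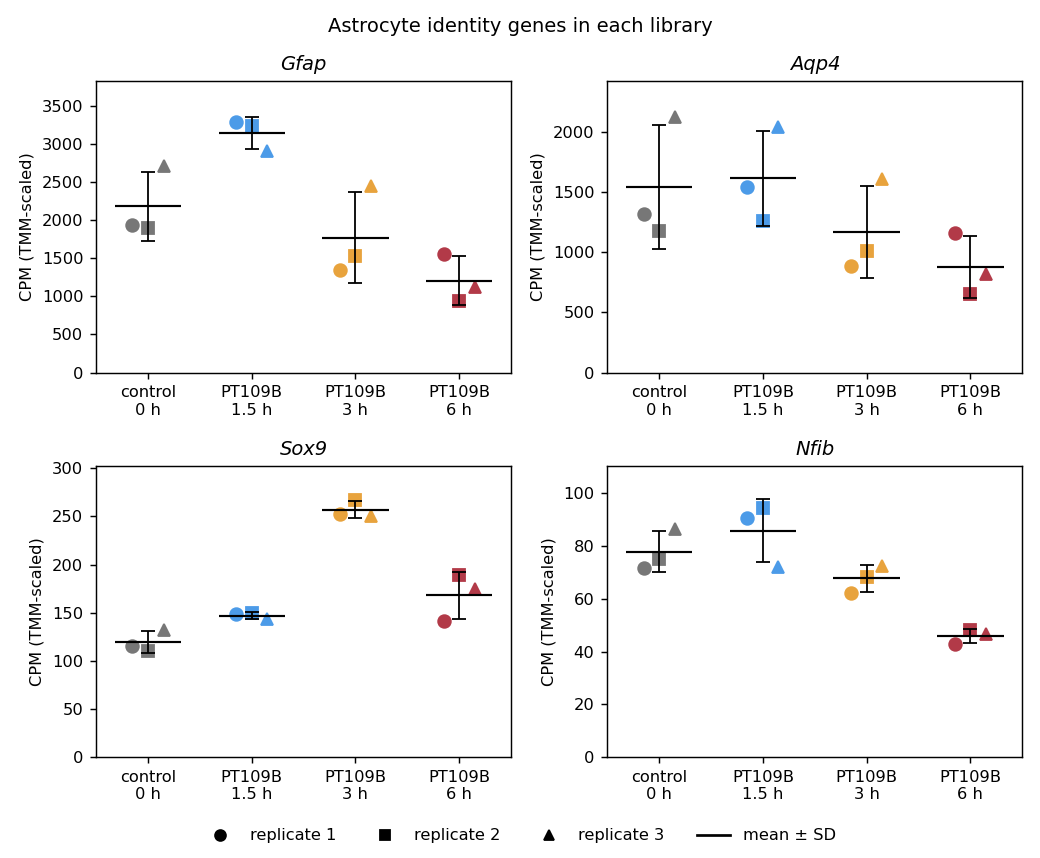
CPM (TMM-scaled, linear axis from 0) of Gfap, Aqp4, Sox9 and Nfib in each of the 12 libraries, with the mean and SD of each group of 3 and the replicate number as marker shape. The 3 h libraries are highest for Sox9 (253, 267 and 251 CPM) and the 6 h libraries lowest for Nfib (43.0, 48.1 and 46.5 CPM), while Gfap and Aqp4 spread more within groups.

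These calls stand against many other genes that changed. At 1.5 h 0 of the 4 genes were called, where 3.32% of all genes tested were, 1.95% higher and 1.37% lower (315 genes, or 201 with a replicate block). At 3 h 1 of 4 was called, where 21.4% of genes were, 13.5% higher and 7.94% lower. At 6 h 3 of 4 were called, where 30.5% were, 18.7% higher and 11.8% lower. The balance of higher and lower calls depends on the scaling: 62.9% of calls at 3 h and 61.3% at 6 h were higher with TMM, but 25.6% and 38.8% with library size alone and 28.3% and 41.9% with depth taken from count and FPKM. At 1.5 h these shares were 58.7%, 43.3% and 43.6%, and 69.8% with RLE. Library size alone moved the median of all genes by -0.31 at 3 h and -0.22 at 6 h on the log2 scale. Groups that did not overlap were common too, with 12.9% of genes wholly above control and 15.1% wholly below at 1.5 h, 23.4% and 24.3% at 3 h, and 28.2% and 27.5% at 6 h. Between times, 1 of the 4 was called at 3 h against 1.5 h, where 20.3% of genes were, 12.1% higher and 8.23% lower (1929 genes, or 1243 with the block). At 6 h against 3 h 2 of 4 were called, both lower, where 4.05% of genes were, 2.33% higher and 1.72% lower. At 6 h against 1.5 h 2 of 4 were called, both lower, where 37.6% of genes were, 20.5% higher and 17.1% lower. Genes wholly above and wholly below were 17.7% and 16.6% at 3 h against 1.5 h, 13.2% and 11% at 6 h against 3 h, and 24.6% and 22.2% at 6 h against 1.5 h.

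**Figure D2:**
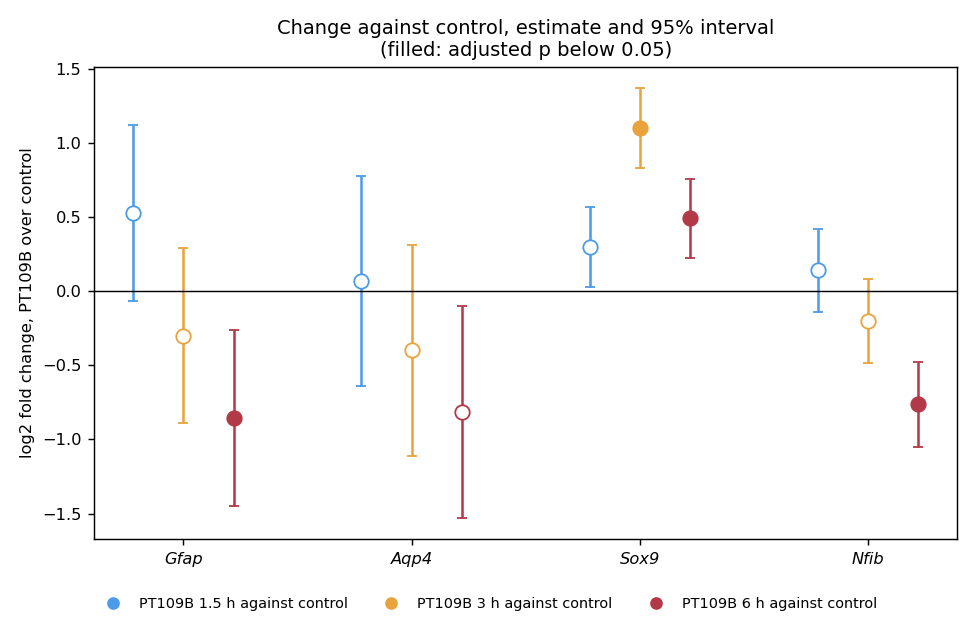
Log2 fold change of each gene at 1.5, 3 and 6 h of PT109B against control (vertical axis), with 95% intervals and filled points where the adjusted p was below 0.05. Sox9 is the only gene of the 4 with its points above 0 at each time, filled at 3 h (1.103) and 6 h (0.49), while Gfap (-0.85) and Nfib (-0.76) are filled below 0 at 6 h.

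At 3 h and 6 h the libraries that stood apart lay farther from the other pair in Gfap and Aqp4 than in Sox9 and Nfib, and at 1.5 h this did not hold for Gfap. At 3 h replicate 3 had 1.71 times the Gfap and 1.69 times the Aqp4 of the other pair's mean, but 0.964 of its Sox9 and 1.11 times its Nfib. At 6 h replicate 1 had 1.51 times the Gfap and 1.57 times the Aqp4 of the other pair, and 0.779 of its Sox9 and 0.908 of its Nfib. At 1.5 h replicate 3 had 0.89 of the pair's Gfap, 1.46 times its Aqp4, 0.961 of its Sox9 and 0.779 of its Nfib. Without these 3 libraries, a comparison of 2 treated libraries with 3 controls, the Gfap change was 0.58 at 1.5 h (adjusted p = 0.00716), -0.67 at 3 h (adjusted p = 0.00298) and -1.17 at 6 h (adjusted p = 6.42e-05). Aqp4 was at -0.14 (adjusted p = 0.689), -0.76 (adjusted p = 0.043) and -1.15 (adjusted p = 0.00846) at these times. Nfib was at 0.25, -0.32 and -0.80, with adjusted p-values of 0.0308, 0.00858 and 3.95e-06. Sox9 was at 0.31 at 1.5 h (adjusted p = 0.0048), 1.06 at 3 h (adjusted p = 2.71e-08) and 0.52 at 6 h (adjusted p = 5.73e-05). In that fit 59.2%, 70.9% and 75.1% of 9523 genes were called, so a call there is close to what most genes show. The 3 libraries were left out for lying apart from their groups and closest to the controls. That choice by itself narrows the spread within groups and favours calls against control, so these p-values are no separate support.

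Genes of mitosis divided the libraries in this way at 3 h and 6 h, and those of microglia, the brain's resident macrophages, at 1.5 h. The mean log2 CPM of 25 mitosis genes was 6.07 to 6.54 in controls and 6.01 to 6.31 at 1.5 h. At 3 h replicates 1 and 2 stood at 2.89 and 2.755 and replicate 3 at 5.735, and at 6 h replicate 1 stood at 5.73 and the other pair at 2.435 and 2.57. Of the 25, 1 was called lower at 3 h and 1 at 6 h (Cenpe, a kinetochore motor, log2 changes of -2.33 and -2.09), and 0 at 1.5 h, with medians of -1.9 and -1.89 at 3 h and 6 h. The summed CPM of 20 microglia markers was 3145 to 3815 in controls, 392 and 382 in 1.5 h replicates 1 and 2 against 4043 in replicate 3, 3014 to 3498 at 3 h and 2646 to 3234 at 6 h, with 0 of the 20 at 0 in any library. Of these 20, 0, 1 and 2 were called at 1.5, 3 and 6 h, each lower (Tmem119 at both later times, Cx3cr1 at 6 h). Over all genes 1.37%, 7.94% and 11.8% were called lower at these times, and the share called lower in either list was below that. The part of either list in the results for Gfap, Aqp4, Sox9 and Nfib was not tested. In the library with mitosis genes near control Sox9 was at 2.1 times the control mean at 3 h, against 2.17 for the other pair, and at 1.18 times at 6 h, against 1.52. Nfib in those libraries was at 0.932 of the control mean at 3 h, against 0.839, and at 0.552 at 6 h, against 0.608.

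**Figure D3:**
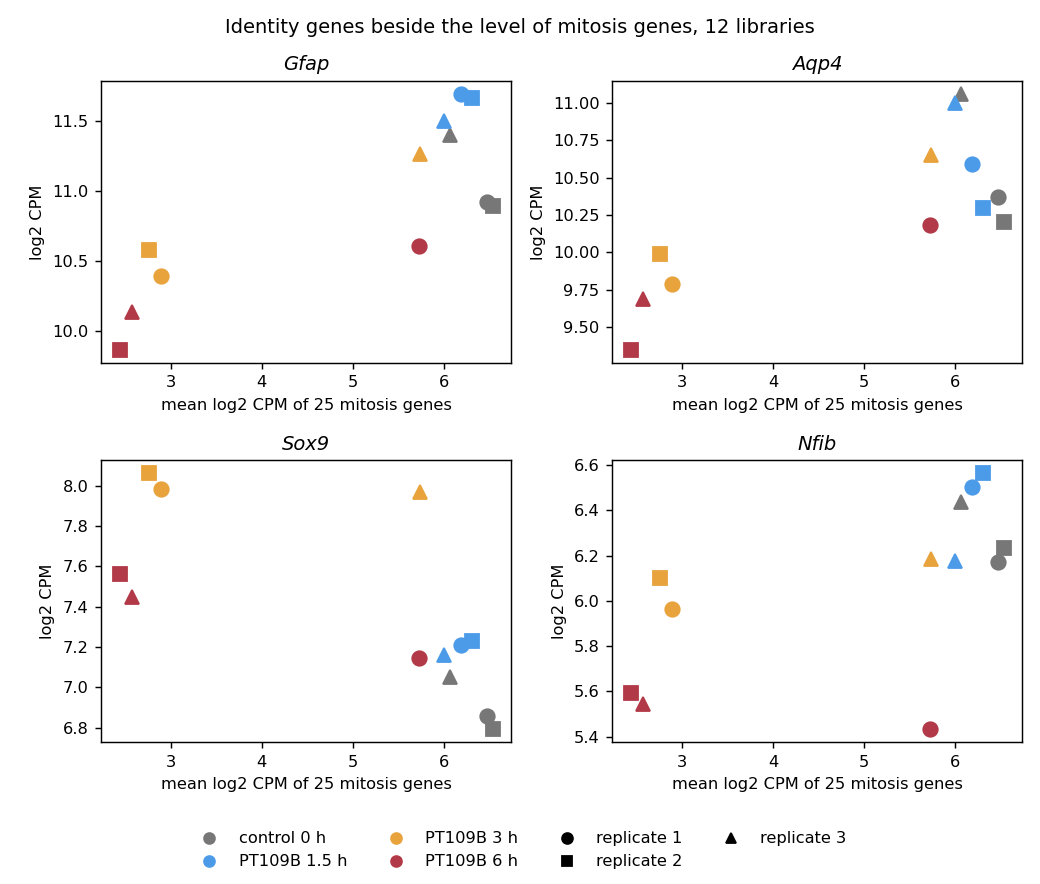
Log2 CPM of each gene (vertical axes) against the mean log2 CPM of 25 mitosis genes (horizontal axes) in the 12 libraries, coloured by time with the replicate as marker shape. Gfap and Aqp4 are higher in the 3 h and 6 h libraries whose mitosis level is 5.73 or 5.735 than in those at 2.435 to 2.89, while Sox9 runs from 251 to 267 CPM over the 3 libraries at 3 h and Nfib from 43.0 to 48.1 CPM over those at 6 h.

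Other cell types were represented as well. Of the oligodendrocyte lineage list 13 members were tested, and 0 were called at 1.5 h and 1 at 6 h (Olig2, a lineage factor, 1.04). Of 14 fibroblast and meningeal genes Twist1 was called higher at 3 h and 6 h (1.45 and 1.17). So were Flt1 of 9 endothelial genes (0.92 and 0.87) and Tubb3, a neuronal tubulin, of 14 neuronal genes (1.51 and 1.70). No other member of these 3 lists was called at 3 h or 6 h, where 13.5% and 18.7% of all genes were called higher. Uncalled members went both ways. Among neuronal genes Dcx was at -2.02 and -2.83 and Nefl at 1.74 and 1.62. Among endothelial genes Cdh5 was at -1.46 and -1.60 and Kdr at 0.65 and 0.15. The calls of Flt1 at 3 h and of Twist1 and Flt1 at 6 h ended with library size and depth scaling. At 1.5 h these 3 lists had 0 calls, and the ependymal list had 1 tested member and 0 calls at any time. The summed CPM of the fibroblast list was 4878 to 6308 in controls, 5001 to 13430 at 1.5 h, 5599 to 12730 at 3 h and 5054 to 9665 at 6 h. Their part in the results was not tested.

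Ratios between the genes within a library do not depend on how libraries are scaled. The ratio of Sox9 to Nfib FPKM was 1.13, 1.09 and 1.05 in controls, 1.11, 1.12 and 1.31 at 1.5 h, 2.68, 2.75 and 2.41 at 3 h, and 2.1, 2.7 and 2.55 at 6 h. The 3 h and 6 h libraries did not overlap the controls, with 2.39-fold and 2.23-fold higher ratios. The exact permutation test (two-sided) gave p = 0.1 for each, the smallest value that 3 against 3 allows, and 0.225 adjusted over 9 such tests. Gfap to Aqp4 stayed closer: the ratio was 2.87, 3.17 and 2.5 in controls, 4.2, 5.04 and 2.81 at 1.5 h, 3.01, 2.96 and 2.98 at 3 h, and 2.64, 2.8 and 2.69 at 6 h (exact permutation p = 0.3, 0.7 and 0.6). The 2 highest Gfap to Aqp4 ratios at 1.5 h were in the libraries with low microglia markers. Gfap to Sox9 was 27.2 ± 3.08 in controls, 32 ± 1.47 at 1.5 h, 10.4 ± 3.69 at 3 h and 11.2 ± 4.74 at 6 h (SD, n = 3 each, exact permutation p = 0.2, 0.1 and 0.1).

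**Figure D4:**
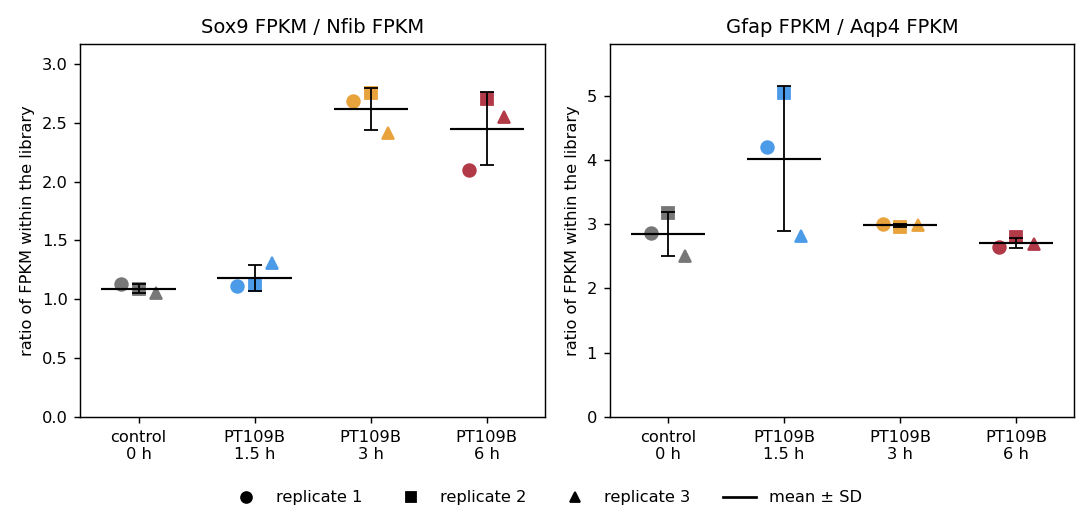
Ratio of Sox9 to Nfib FPKM (left) and of Gfap to Aqp4 FPKM (right) in each library on linear axes from 0, with the mean and SD of 3 libraries per group. The Sox9 to Nfib ratio lies between 2.1 and 2.75 in the 3 h and 6 h libraries and between 1.05 and 1.31 in the control and 1.5 h libraries, and the Gfap to Aqp4 ratio exceeds 4 in 2 of the 1.5 h libraries.

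Across the 12 libraries the log2 levels of Gfap and Aqp4 correlated with r = 0.877 (rho = 0.86), Gfap and Nfib with r = 0.851 (rho = 0.846), and Aqp4 and Nfib with r = 0.663 (rho = 0.692). Sox9 correlated with Gfap, Aqp4 and Nfib at r = -0.357, -0.376 and -0.217. The libraries share groups and scaling, so these are descriptions. Among 8181 genes with a mean of at least 5 CPM, Aqp4 ranked only 165th in likeness to Gfap. The genes most like Gfap were Asic1 (an acid-sensing ion channel, r = 0.971), Tyro3 (a receptor tyrosine kinase, 0.968), Glt8d1 (0.968), Erbin (0.965) and Itgb8 (an integrin subunit, 0.962), and those most like Aqp4 were Skil (0.959), Pnpla8 (0.953), Gpr37l1 (0.942), Glb1l2 (0.937) and Ssbp4 (0.936). Of the Gfap group, Asic1 was at -1 (log2) at 6 h and Erbin at -0.89.

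Sox9 was most like Cpeb2 (r = 0.967), Nab2 (0.959), Bcor (0.944), Jmjd1c (0.941) and Lpin1 (0.94), each of which was called higher at 3 h, by 1.43, 3.16, 1.05, 0.76 and 1.87 on the log2 scale. Nab2 encodes a corepressor of EGR factors that is itself induced by them, and BCOR is a subunit of a Polycomb complex. Nfib was most like Tril (r = 0.981), Ccdc47 (0.98), Dusp18 (0.973), Stk32a (0.969) and Igsf11 (0.963), each called lower at 6 h, by -1.30, -0.88, -0.74, -1.30 and -0.83. With the 2 libraries farthest from the gene's median left out, r was 0.892 to 0.971 for these 20 genes. The 20 were chosen by likeness over the same libraries, so their calls follow in part from that choice and are no separate result. Of all genes 13.5% were called higher at 3 h and 11.8% lower at 6 h.

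Nuclear factor I proteins bind DNA as dimers and overlap in function, and 3 of the 4 family members were in the table, Nfix being not analysed here. Nfia, the member most tied to the onset of gliogenesis, had 65.0, 65.8 and 92.2 CPM in controls, 78.8, 80.7 and 83.2 CPM at 1.5 h, 64.5, 66.5 and 84.8 CPM at 3 h, and 61.7, 64.55 and 55.55 CPM at 6 h. Its 6 h libraries lay below every control, and the log2 change was -0.29 ± 0.16 (adjusted p = 0.168). Nfic had 124 ± 2.74, 122 ± 3.95 and 143 ± 14.1 CPM at 1.5, 3 and 6 h, against 137 ± 9.87 CPM in controls (SD, n = 3 each), and its log2 change at 6 h was 0.07 ± 0.10. Nfib was thus the 1 of 3 called at 6 h (33.3%), near the 30.5% of all genes called, and whether it changed more than Nfia or Nfic was not tested. Without the 3 libraries that stood apart, 2 of the 3 family members were lower at 3 h and at 6 h, where 70.9% and 75.1% of all genes were called.

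Of the relatives of Sox9, Sox8, Sox5 and Sox13 were called higher at 3 h, and Sox6 and Sox10 were not. SOX8, SOX9 and SOX10 form the SoxE group, and SOX5, SOX6 and SOX13 the SoxD group, which modulates SoxE factors. Of these 6, Sox9 included, 4 were called higher at 3 h (66.7%, where 13.5% of all genes were called higher), with a median of 0.78 beside -0.03 for all genes. Sox8 had 72.35 ± 18.4 CPM at 3 h, against 25.5 ± 2.64 CPM in controls (log2 1.51 ± 0.39, adjusted p = 0.0229). Sox13 had 22.1 ± 3.97 CPM at 3 h, against 12.2 ± 0.928 CPM in controls (0.86 ± 0.20), and rose by 1.22 ± 0.20 at 6 h. Sox5 changed by 0.71 ± 0.15 at 3 h. The 3 h calls of Sox5 and Sox13 ended with library size alone and with depth scaling, without a change of sign.

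At 6 h Sox9 and Sox13 were called higher and Sox6 lower (-0.53 ± 0.18, adjusted p = 0.0468). Sox10, an oligodendrocyte lineage factor, was not called against control at any time and differed widely within groups, with 37.5 and 38.8 CPM in 1.5 h replicates 1 and 2 and 1.81 CPM in replicate 3, against 6.42, 7.57 and 1.85 CPM in controls. It was called lower at 3 h than at 1.5 h (-5.08, adjusted p = 0.013) and at 6 h than at 1.5 h (-3.10, adjusted p = 0.0246). Sox8 at 1.5 h had the same form, 67.5 and 69.4 CPM in replicates 1 and 2 and 20.7 CPM in replicate 3. Without the libraries that stood apart, 5 of the 6 were higher at 1.5 h and 4 were higher and 1 lower at 3 h. In that fit 59.2% and 70.9% of all genes were called at these times.

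Most of the other gliogenic transcription factors were called by 6 h, more of them lower than higher. The list held 18 tested genes, Sox9 and Nfib included. Of these 1 was called at 1.5 h, 4 were higher and 5 lower at 3 h, and 3 were higher and 9 lower at 6 h. Over all genes 3.32% were called at 1.5 h, 13.5% were higher and 7.94% lower at 3 h, and 18.7% higher and 11.8% lower at 6 h. The median at 6 h was -0.41, beside -0.02 for all genes. The ID proteins, which keep helix-loop-helix factors from binding DNA and are known targets of BMP signalling, were among the largest falls. Id3 had 105 ± 23.5 CPM at 3 h and 104 ± 11.1 CPM at 6 h, against 475 ± 31.4 CPM in controls (SD, n = 3 each). Id2 fell to 24.5 ± 3.57 CPM at 6 h, against 136 ± 13.3 CPM in controls (log2 -2.48 ± 0.19, adjusted p = 3.01e-05). Id1 fell by 1.57 at 3 h and by 1.74 at 6 h on the log2 scale.

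Klf15, a factor of glial metabolism, had 8.63 ± 1.46 CPM at 3 h and 7.445 ± 2.88 CPM at 6 h, against 29.1 ± 1.73 CPM in controls (log2 -1.75 and -1.96). Sox2, which marks neural stem cells and astrocytes, was the fifth largest fall at 3 h (-1.42 ± 0.16). Hes1, a Notch effector that restrains neuronal fate, rose at 1.5 h alone of the 18, to 95.7 ± 5.19 CPM, against 10.6 ± 0.39 CPM in controls (3.18 ± 0.30, adjusted p = 0.000248). Of those not called at 6 h, Nfic and Rfx4 were the most abundant, with log2 changes of 0.07 and 0.16. Without the 3 libraries that stood apart, 8 were higher and 7 lower at 3 h, and 6 higher and 10 lower at 6 h. In that fit 70.9% and 75.1% of all genes were called at these times.

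**Figure D5:**
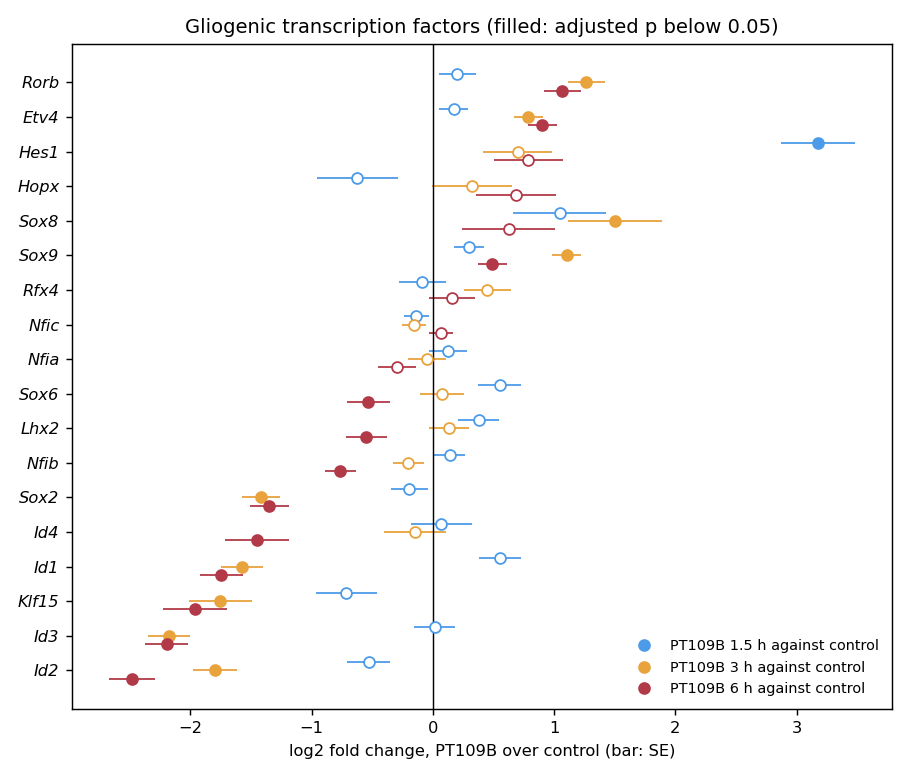
Log2 fold change (horizontal axis, bars are SE) of 18 gliogenic transcription factors at 1.5, 3 and 6 h of PT109B against control, ordered by the 6 h value and filled where the adjusted p was below 0.05. Id2 (-2.48 at 6 h) and Id3 (-2.20) lie at the low end, Nfib (-0.76) lies between them and the uncalled factors near 0, and Sox9 is above 0 at each time.

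Of 7 intermediate filament genes and partners tested, Gfap included, 1, 1 and 1 were called higher at 1.5, 3 and 6 h, and 1 lower, Gfap at 6 h. These 2 calls at 6 h, 28.6% of the 7, are near the 30.5% of all genes called. Over all genes 1.95%, 13.5% and 18.7% were called higher at 1.5, 3 and 6 h. Vim, the filament that copolymerises with GFAP, had 4497 ± 985 CPM at 6 h, against 4132 ± 667 CPM in controls (log2 0.12 ± 0.29, adjusted p = 0.767). Nes, the filament of neural progenitors, had 2957 ± 1030 CPM at 6 h, against 1572 ± 332 CPM in controls (0.91 ± 0.35, adjusted p = 0.069). Plec, a filament linker, rose by 0.95 ± 0.22 at 3 h and 0.90 ± 0.22 at 6 h. Hspb1, a small heat shock protein, rose by 0.71 ± 0.16 at 1.5 h, a call that ended with library size and depth scaling. Whether Gfap differed from these genes was not tested.

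A list of 13 tested genes held Aqp4, genes that anchor aquaporin 4 or work with it, and the water channels Aqp1 and Aqp9. Of these 0 were called at 1.5 h and 2 were higher at 3 h and at 6 h, with 0 lower. The 2 of 13, or 15.4%, are near the 13.5% and 18.7% of all genes called higher at these times. They were Trpv4, an ion channel sensitive to swelling that interacts with aquaporin 4 in astrocytes (1.38 ± 0.35 and 2.605 ± 0.35), and Lamc1, a laminin chain (1.06 ± 0.23 and 0.75 ± 0.23). Trpv4 was a low gene, with 9.84 ± 1.01 CPM at 6 h, against 1.61 ± 0.189 CPM in controls. The 6 h call of Lamc1 ended with library size and depth scaling. Agrn, which organises the perivascular complex, had log2 changes of 0.26, 0.07 and -0.12 at 1.5, 3 and 6 h.

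Membrane and metabolic genes of astrocytes, 25 of 38 listed being tested with Aqp4 among them, gave 1 call higher at 1.5 h, 5 higher at 3 h, and 1 higher and 1 lower at 6 h. Their medians were 0.26, 0.625 and 0.405, beside -0.01, -0.03 and -0.02 for all genes. The 20% called at 3 h, each higher, lie beside 13.5% of all genes called higher and 21.4% called in either direction. Over all genes 1.95% were higher at 1.5 h, and 18.7% were higher and 11.8% lower at 6 h. At 3 h the largest rises were those of Ppp1r3c, a glycogen regulator (1.58 ± 0.36), Clu, a secreted chaperone (1.16 ± 0.34), Mfge8, a bridge for phagocytosis (1.12 ± 0.33), and Sparcl1, a synaptogenic secreted protein (1.06 ± 0.34). The calls of Clu, Mfge8 and Sparcl1 ended with library size and depth scaling. S1pr1, a sphingosine-1-phosphate receptor, rose to 227 ± 22.9 CPM at 6 h, against 86.1 ± 26 CPM in controls (1.397 ± 0.20), and Fgfr3, an FGF receptor of astrocytes, fell by 0.72 ± 0.22 on the log2 scale. Glul had log2 changes of -0.31, 0.06 and -0.37 at 1.5, 3 and 6 h, and 0 of these passed. Without the libraries that stood apart, 18 were higher and 2 lower at 3 h, and 12 higher and 6 lower at 6 h. In that fit 70.9% and 75.1% of all genes were called at these times.

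Reactive astrocyte genes, a list of 28 tested members that includes Gfap, gave 3 calls higher at 1.5 h, 6 higher at 3 h, and 5 higher and 2 lower at 6 h. Over all genes 1.95% were higher at 1.5 h, 13.5% at 3 h and 18.7% at 6 h, and 11.8% were lower at 6 h, so the 25% of the 28 called at 6 h lie below the 30.5% of all genes. Gfap was 1 of the 2 lower, the other being Slc10a6, a steroid sulfate transporter (-2.23 ± 0.55). Ptgs2, the inducible cyclooxygenase, rose at each time, to 475 ± 29.2 CPM at 1.5 h, against 64.4 ± 3.66 CPM in controls (2.88 ± 0.43). Emp1, a membrane protein of reactive glia, rose by 1.405, 1.79 and 1.77. Cd44, the hyaluronan receptor, rose at 6 h to 1974 ± 112 CPM, against 1052 ± 35.5 CPM in controls (0.91 ± 0.12, adjusted p = 0.000582). Vim and Cp, the most abundant uncalled members, had log2 changes of 0.12 and 0.27 at 6 h.

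Several ligands that act through STAT3 rose, though not all. Lif had 1003 ± 173, 950.5 ± 255 and 749 ± 103 CPM at 1.5, 3 and 6 h, against 54.4 ± 2.81 CPM in controls, with log2 changes of 4.21 ± 0.24, 4.13 ± 0.24 and 3.78 ± 0.24. Il11 rose by 2.32, 3.45 and 3.12, and Clcf1, a ligand of the CNTF receptor, by 2.48 at 3 h and 2.13 at 6 h. Il6 was not called at 1.5 h and rose by 2.93 at 6 h, Clcf1 was not called at 1.5 h, and Cntf, the ciliary neurotrophic factor, was at 0.07 and 0.03 at 1.5 and 3 h and was called lower at 6 h (-0.59, adjusted p = 0.0114). In all, 2 of 19 tested pathway genes were higher at 1.5 h (1.95% of all genes were), 6 higher and 2 lower at 3 h (13.5% and 7.94% of all genes), and 6 higher and 4 lower at 6 h (18.7% and 11.8%). The shared receptor chain Il6st and the kinase Jak1 were the most abundant, with log2 changes of 0.12 and 0.43 at 6 h that did not pass, and Jak1 at 0.62 at 3 h passed (adjusted p = 0.0491) but not with library size or depth scaling. Stat3 was not analysed here.

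The BMP pathway gave calls both ways. Of 14 tested genes 0 were called at 1.5 h, 3 were higher and 4 lower at 3 h, and 2 were higher and 6 lower at 6 h, where 13.5% and 7.94% of all genes were higher and lower at 3 h and 18.7% and 11.8% at 6 h. Bmpr1a, a type I receptor, had 111 ± 2.64 CPM at 6 h, against 379 ± 43.3 CPM in controls (-1.77 ± 0.11, adjusted p = 1.43e-05). Smad9, a receptor-activated SMAD, fell to 9.13 ± 0.594 CPM at 6 h, against 66.6 ± 2.63 CPM in controls (-2.86 ± 0.21). The secreted antagonist Nog (-2.99 ± 0.54) and the inhibitor Smad6 (-2.72 ± 0.30), itself a known BMP target, fell too, while the ligand Bmp2 rose by 1.89 ± 0.47 at 3 h.

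Notch signalling, which favours glial over neuronal fate, gave 1 call higher of 12 tested genes at 1.5 h (Hes1, above), 3 higher and 1 lower at 3 h, and 3 higher and 2 lower at 6 h. These are 8.33%, 33.3% and 41.7% of the 12, beside 3.32%, 21.4% and 30.5% of all genes. The ligand Jag2 had 13.5 ± 6.57 CPM at 6 h, against 0.603 ± 0.293 CPM in controls (4.47 ± 0.54), and the ligand Jag1 rose by 1.21 ± 0.22. The effector Hey1 fell to 21 ± 4.11 CPM at 6 h, against 87.15 ± 4.52 CPM in controls (-2.05 ± 0.19, adjusted p = 8.36e-05). Rbpj, the DNA-binding partner of Notch, had a log2 change of -0.14 ± 0.15 at 6 h.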

How the data were processed

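Total RNA of 12 libraries, 3 in each of 4 groups taken from the sample labels, was measured by RNA-seq; per the labels' protocols the libraries were made with a NEBNext Ultra RNA kit. Per the file headers, the authors deposited for each gene and library a count, here treated as an estimated count, and an FPKM value. Per the submitters' processing notes, StringTie 2.2.1 was used. Which aligner, build and annotation they chose is not given in the sources used here. Since 9.49% of values, in 1343 genes, held decimals, the counts were rounded. The table held 9721 genes, over which FPKM ranks were taken; scaling and adjusted p-values refer to the genes tested. The number of per-sample columns not used was 0.

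The test was edgeR 4.0.16 under R 4.3.3. filterByExpr removed 230 genes, 9491 were TMM-scaled, and 1 robust quasi-likelihood fit to all 12 libraries had the group as its only term. A gene was called when its p, adjusted by Benjamini-Hochberg over all genes tested, was below 0.05. Fold changes use a prior count of 0.125. The fits were also run on simulated data in which no library stood apart, so that run does not show how they handle such libraries. The comparisons with control share the same 3 control libraries.

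The 4 genes and 17 lists (286 genes, 229 in the table) were chosen with earlier results of these data known. From each list at most 4 called genes per time, by size of change, and 2 uncalled, by level, are named, with the nuclear factor I, SoxE and SoxD families in full and the 5 genes most like each of the 4. Gja1, Sox2, Cd44, Cntf and Bmpr1a fall outside this rule and were chosen after their values were seen.

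Alternatives were RLE, library size alone, depth from count and FPKM (a factor of 0.88 to 1.18 between libraries), no filter, the replicate number as a block, DESeq2 1.42.0, limma 3.58.1 on log2 FPKM plus 0.1 or 1, leaving out the 3 libraries that stand apart, and leaving out each library. The 3 libraries were picked from these data by their likeness to controls, which by itself favours calls without them. List counts without the 3 libraries were added after seeing the data. Same-numbered libraries deviated together at 1.5 h against control (r of 0.2 to 0.451) and at 3 h against 1.5 h (0.166 to 0.224), with 3 of 3 pairs over 0.1. In the other comparisons they did not. The numbers, taken from the labels, entered only the alternative fit with a block, and the main fit had no pairing in any comparison. Counting errors cover sampling of reads only. A result for the oligodendrocyte lineage list is not reported here.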

Additional observations from a re-analysis of the deposited data

Results flagged for a closer look

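Each of the results here is a difference between treatment times that passed the test of the difference itself (edgeR's quasi-likelihood test). Sox9 was higher at 3 h than at 1.5 h by 0.81 on the log2 scale (adjusted p = 0.00342), in 3 of 3 libraries. It was lower at 6 h than at 3 h, with a log2 change of -0.61 (adjusted p = 0.024), a call that held in 17 of 21 alternatives. Nfib was lower at 6 h than at 3 h (-0.56, adjusted p = 0.04), a call that held in 6 of 21 alternatives. It was lower at 6 h than at 1.5 h (-0.90, adjusted p = 0.000722). Gfap was lower at 6 h than at 1.5 h (-1.38, adjusted p = 0.00362), and in each of these 5 cases the groups did not overlap. Of all genes 17.7% lay wholly above at 3 h against 1.5 h, 11% wholly below at 6 h against 3 h and 22.2% wholly below at 6 h against 1.5 h.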

How the results depend on the processing

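Over the 21 alternatives, the calls of Sox9 at 3 h against control and against 1.5 h, of Nfib at 6 h against control and against 1.5 h, and of Gfap at 6 h against 1.5 h held throughout; the cause of the changes below was not tested. With library size alone and with depth scaling, Aqp4 at 1.5 h turned to -0.00648 and -0.00614. With these 2, Nfib at 3 h was called (-0.50 and -0.47), as were Gfap (-1.03 and -1.001) and Nfib (-0.57 and -0.54) at 3 h against 1.5 h, while Sox9 at 6 h (0.26 and 0.29) and Nfib at 6 h against 3 h (-0.48 and -0.49) lost their calls. With limma on log2 FPKM plus 0.1 or 1, Nfib at 3 h (-0.43 and -0.41), Gfap (-1.09 and -1.08) and Nfib (-0.55 and -0.53) at 3 h against 1.5 h and Aqp4 at 6 h against 1.5 h (-1.01 and -1.002) were called, and Sox9 at 6 h (0.29 and 0.28) and Nfib at 6 h against 3 h (-0.43 and -0.40) were not. RLE called Gfap at 3 h against 1.5 h (-0.85) and Aqp4 at 6 h against 1.5 h (-0.92), and no filter called these (-0.88 and -0.98) and Nfib at 3 h against 1.5 h (-0.40). DESeq2 called Aqp4 at 6 h (-0.82) and at 6 h against 1.5 h (-0.92), Gfap (-0.85) and Nfib (-0.37) at 3 h against 1.5 h, and 788 genes at 1.5 h and 838 at 6 h against 3 h.

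A replicate block left 201 genes called at 1.5 h, 1243 at 3 h against 1.5 h and 159 at 6 h against 3 h. Under this block Sox9 and Nfib at 6 h against 3 h were not called (-0.62 and -0.56), Aqp4 at 6 h against 1.5 h was (-0.85), and no other call of the 4 genes changed.

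Leaving out the 3 libraries that stand apart is a choice that by itself favours calls. Without them Gfap was called at 1.5 h (0.58), at 3 h (-0.67), at 3 h against 1.5 h (-1.25) and at 6 h against 3 h (-0.50). Aqp4 was called at 3 h (-0.76), at 6 h (-1.15) and at 6 h against 1.5 h (-1.01), and turned to -0.14 at 1.5 h. Sox9 (0.31) and Nfib (0.25) were called at 1.5 h, and Nfib at 3 h (-0.32) and at 3 h against 1.5 h (-0.56). Counts of called genes were then 5642, 6756 and 7154 at 1.5, 3 and 6 h, 6655 at 3 h against 1.5 h, 3251 at 6 h against 3 h and 7242 at 6 h against 1.5 h.

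Leaving out 1 library at a time (1 left-out run per library, 12 in all), Aqp4 ranged from -0.14 to 0.37 at 1.5 h, from -1.065 to -0.51 at 6 h and from -1.13 to -0.675 at 6 h against 1.5 h. It was at -0.03 and -0.09 at 1.5 h without control replicates 1 and 2. Gfap ranged from -1.08 to -0.67 at 6 h and from -1.215 to -0.70 at 3 h against 1.5 h. Sox9 ranged from 0.33 to 0.60 at 6 h, from -0.73 to -0.50 at 6 h against 3 h and from 0.0181 to 0.31 at 6 h against 1.5 h. Nfib ranged from -0.47 to -0.27 at 3 h against 1.5 h and from -0.66 to -0.52 at 6 h against 3 h. Counts ranged from 115 to 2871 at 1.5 h (the highest without 1.5 h replicate 3), from 849 to 3697 at 3 h (without 3 h replicate 3) and from 1741 to 3868 at 6 h (without 6 h replicate 1). Between times they ranged from 422 to 4051 at 3 h against 1.5 h, from 41 to 788 at 6 h against 3 h and from 2257 to 5002 at 6 h against 1.5 h.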
